A study of Mus musculus with 6 samples.

Results

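Antigen-free (AF) mice were compared with the pooled mice of the 2 groups that do eat food antigens, specific pathogen free (SPF) and germ-free (GF), to ask which genes of the small intestinal epithelium lay outside everything seen in the other groups. All 6 libraries of the series entered, 2 from AF mice and 4 from the others. They hold RNA of epithelium sorted from the small intestines of C57BL/6 animals. Per the labels, AF mice met foreign antigens from neither microbes nor food, GF mice had no microbiota, and SPF mice were free of particular pathogens only. AF and GF mice therefore share the lack of a microbiota, and SPF and GF mice share exposure to food antigens. Any other difference in diet between the groups cannot be told apart from the group. No genotype other than the strain, and no age, sex, diet composition or pooling of animals, is given in the sources used here. Libraries are named by the numbers in their titles: AF replicates 2 and 3, GF replicates 1 and 3, and SPF replicates 3 and 4. Of 51912 genes in the tables, 13222 on autosomes or the mitochondrial chromosome had counts high enough to be tested, and genes of chromosomes X and Y were left out.

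Several systems known from this epithelium frame the comparison. Enterocytes take up carotenoids and fat at the brush border and cleave carotenoids into retinal. ISX, a homeobox factor of the intestine, is known to repress the uptake receptor SCARB1 and the cleaving enzyme BCO1, and is itself induced by retinoic acid, which closes a feedback loop on vitamin A. Enterocytes also detoxify compounds of plants and microbes with enzymes under the receptors CAR, PXR and AhR and the factor NRF2. They secrete antimicrobial lectins, and under interferon gamma they display peptides on MHC class II through the transactivator CIITA.

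Levels are given as CPM, expected counts scaled to TMM-adjusted library totals, in which 3 counts correspond to 0.109 to 0.235 CPM. Library totals ran from 16109488 to 19417054 expected counts, and mitochondrial genes held 17.86% (GF replicate 1) to 35.3% (AF replicate 2) of them. The libraries carried the marks of epithelium, with Epcam at 573 to 749 CPM in all 6, whereas the B cell and plasma cell markers Cd79a and Jchain and the fibroblast collagen Col1a1 stayed at or below 0.178 CPM. The pooled libraries differed among themselves: SPF replicate 4 was poor in markers of crypt, Paneth and goblet cells (Mki67 at 6.24 CPM against 30.2 to 85.1 CPM elsewhere), and GF replicate 3 and SPF replicate 3 held the most T cell RNA. Transcripts of the Y chromosome were at 0 counts in both SPF libraries only, and Xist stood at 129.5 and 96.5 CPM there, at 14.8 CPM in GF replicate 3 and at no more than 0.178 CPM in the other 3. GF replicate 1 thus matched AF in Xist and Y-linked transcripts, and its values beside AF give a comparison without that difference. The deposited tables of each group bear a separate date-like mark, so that a batch and the group cannot be told apart. Whether each library is a separate animal is not stated, so that a p-value here reflects sample-to-sample spread, which may be technical. Where SPF and GF are fitted as 1 group, that spread also holds the differences between SPF and GF.

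A gene was placed outside the range when both AF libraries were above the highest, or both below the lowest, of the other 4. By this rule 1067 genes (8.07% of those tested) lay above and 1333 (10.1%) below. With a gap of at least 2-fold between the nearest AF and the nearest other library, computed after adding 0.5 CPM, 29 genes (0.219%) lay above and 30 (0.227%) below. A comparison of 2 libraries with 4 cannot give an exact two-sided permutation p below 0.133 for a single gene, so the range is a description. In edgeR's quasi-likelihood test across all genes, with SPF and GF as 1 group, 1 gene rose and 1 fell at a Benjamini-Hochberg adjusted p below 0.05 (0.00756% each): Pkd1l2 and Isx. At an unadjusted p below 0.05 there were 265 higher (2%) and 517 lower (3.91%). DESeq2 called 28 higher and 77 lower at the same adjusted threshold, and edgeR's likelihood ratio test 28 and 54. Scaling moved the split: with library totals alone the median log2 fold change of all genes was -0.30 rather than -0.01, with 416 genes above and 1871 below the range, and on TPM it was -0.32, with 207 above and 2115 below of 11768 genes. List counts with library totals or on TPM are to be read against these shifted counts, not against 8.07% and 10.1%. Leaving out 1 library made the rule easier to meet, with 1173 to 2420 genes above and 1520 to 2659 below, and the counts of lists without a library are to be read against these.

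**Figure D1:**
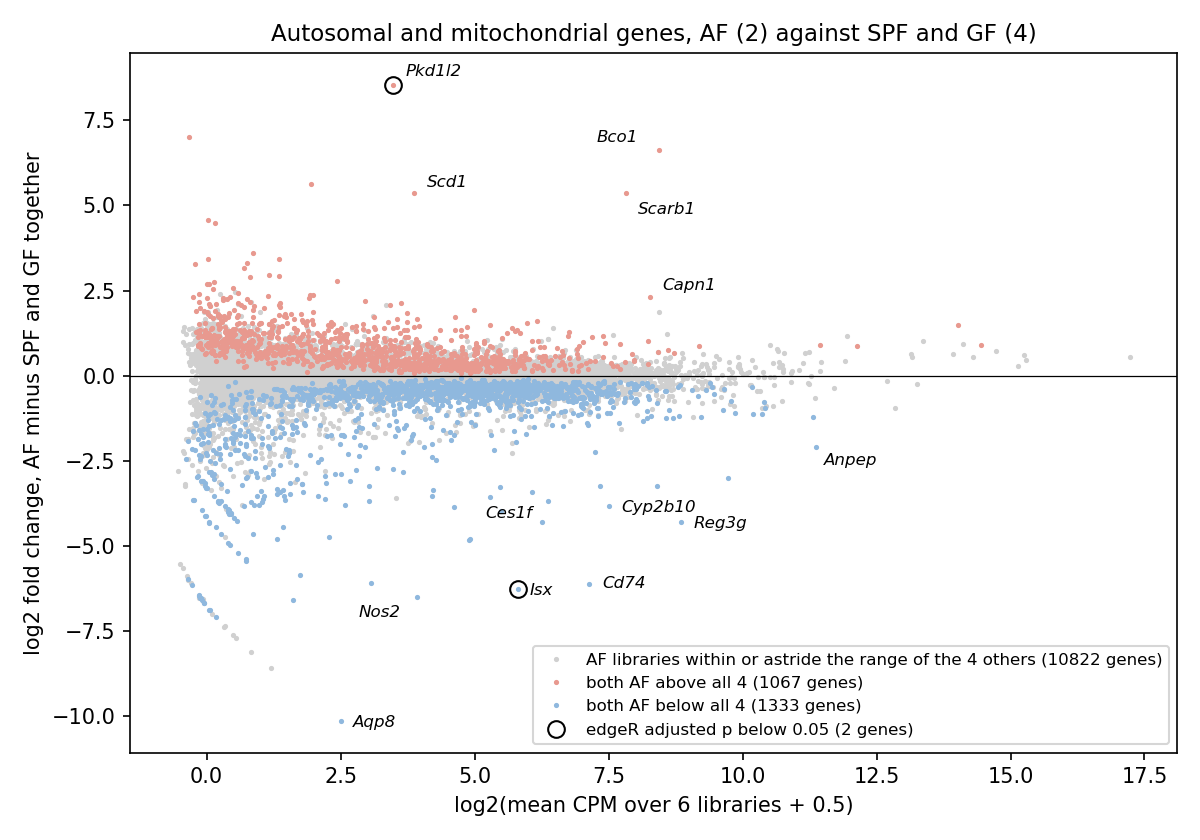
Each point is 1 gene, with the log2 of its mean CPM over 6 libraries (+ 0.5) on the x axis and its edgeR log2 fold change, AF minus the 4 other libraries, on the y axis. Colours mark the 1067 genes above and the 1333 below the range of the 4 others, circles mark the 2 genes past the adjusted threshold, and Bco1, Scarb1, Scd1 and Isx stand far from zero at moderate to high levels.

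Among genes with a mean of at least 5 CPM in AF or the others, the widest gaps in both directions belonged to genes of carotenoid uptake and a neighbour of Bco1. Isx (ENSMUSG00000031621, chromosome 8, 74873173 to 74893506) was nearly absent from AF, at 1.33 and 0.831 CPM, and measured 81.1 and 81.9 CPM in GF and 71.4 and 94.8 CPM in SPF. The 4 other libraries lay within 0.41 of each other on the log2 scale, and the AF libraries stood 39.2-fold below the lowest of them. Isx fell by 6.26 on the log2 scale (SE 0.31, edgeR adjusted p = 0.00157). Its 31 counts in AF against 6377 in the others give, scaled to depth, a level 77.4 times as high in the others (exact binomial 95% interval 54.5 to 114, which covers counting error only).

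Both genes that ISX is known to repress lay far above the range. Bco1, which splits beta-carotene into retinal (ENSMUSG00000031845, chromosome 8, 117095854 to 117133720), measured 1148 and 899 CPM in AF, 6.45 and 21.6 CPM in GF and 3.98 and 9.59 CPM in SPF. Scarb1, the scavenger receptor that takes up carotenoids and cholesterol (ENSMUSG00000037936, chromosome 5, 125277087 to 125341094), measured 729.9 and 557 CPM in AF, 6.59 and 16.2 CPM in GF and 9.56 and 30.9 CPM in SPF. For both genes the lower AF library exceeded the highest other library, by 40.8-fold for Bco1 and 17.8-fold for Scarb1, and GF did not lie consistently nearer to AF than SPF did. Their log2 fold changes of 6.63 (SE 0.68) and 5.35 (SE 0.61) missed the threshold in edgeR (adjusted p = 0.0966 and 0.1), while DESeq2 gave adjusted p = 2.03e-22 and 1.53e-15. The SPF and GF libraries ranged over 2.30 and 2.15 on the log2 scale for these genes. Both genes also missed the threshold in a fit with 3 groups, where differences between SPF and GF do not count as spread. Without SPF replicate 4 both passed (edgeR adjusted p = 0.0488 for Bco1 and 0.00717 for Scarb1), and so they did with a score of crypt markers, low in that library, as a covariate (edgeR adjusted p = 0.038 and 0.000327). Neither passed without GF replicate 1 (edgeR adjusted p = 0.103 and 0.0711). With the mean log2 level of T cell genes, a T cell score, as a covariate, neither passed (edgeR adjusted p = 0.77 and 0.9996). Without AF replicate 2, which leaves 1 AF library, their log2 fold changes were 6.44 and 5.14.

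The other 2 genes of the list of 5 on carotenoid uptake lay below the range by smaller gaps. Cd36, a receptor for fatty acids and carotenoids, measured 11.1 and 7.72 CPM in AF, 32.3 and 36.1 CPM in GF and 22.1 and 35.4 CPM in SPF, a log2 fold change of -1.75 (SE 0.28, edgeR adjusted p = 0.377). Bco2, which cleaves carotenoids off centre, stood at 61.8 ± 4.23 CPM in AF (SD, n = 2) against 76.5 ± 17 CPM in the others (SD, n = 4), and it lay within the range when libraries were scaled by totals, by median of ratios or as TPM. Of 21 tested genes of retinoid metabolism 2 lay above and 2 below (9.52% each, against 8.07% and 10.1%), shares near those of all genes. With library totals 0 lay above and 5 below, and leaving out each library in turn gave 2 to 4 above (4 without GF replicate 3) and 2 to 6 below (6 without SPF replicate 3). Aldh1a1, which makes retinoic acid, measured 47.6 and 40.6 CPM in AF, 242 and 126 CPM in GF and 124 and 333 CPM in SPF, and Rbp2, the retinol carrier of enterocytes, 936 and 762 CPM in AF against 971 to 2842 CPM.

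Pkd1l2, a polycystin-like membrane protein (ENSMUSG00000034416, chromosome 8, 116995679 to 117082449), was the gene with the largest log2 fold change above and the only one called higher. It measured 35.2 and 28.3 CPM in AF, 0.0364 and 0.0678 CPM in GF and 0.0458 and 0.206 CPM in SPF. Outside AF it was at or under the level of 3 counts in every library, with 6 counts in all against 924 in AF, a level scaled to depth 409 times as high in AF (exact binomial 95% interval 187 to 1120). The log2 fold change was 8.54 (SE 0.45, edgeR adjusted p = 0.00157), a fitted value that depends on the prior count. Pkd1l2 lies on the minus strand and Bco1 on the plus strand, and 13405 bases separate their starts. An antisense gene inside Pkd1l2, Gm15395, held 1 count in each AF library and 0 in the others.

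The bases before the RefSeq starts of these genes are shown because the data place Isx, a homeobox gene, and 2 neighbouring genes at opposite ends of the same comparison. Each run is the 250 bases upstream of the start on the gene's own strand (RefSeq, GRCm38.p6), with Isx at chr8:74872924-74873173 (plus strand), Bco1 at chr8:117095615-117095864 (plus strand) and Pkd1l2 at chr8:117082450-117082699 (minus strand). Capitals mark TAAT, the core of many homeodomain sites, or its complement ATTA, and AGGTCANAGGTCA or its complement, a direct repeat bound by nuclear receptors.
Isx: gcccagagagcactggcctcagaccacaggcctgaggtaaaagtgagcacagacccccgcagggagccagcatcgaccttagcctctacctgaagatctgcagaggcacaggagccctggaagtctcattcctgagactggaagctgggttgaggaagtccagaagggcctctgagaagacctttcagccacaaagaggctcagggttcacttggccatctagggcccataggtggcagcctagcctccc
Bco1: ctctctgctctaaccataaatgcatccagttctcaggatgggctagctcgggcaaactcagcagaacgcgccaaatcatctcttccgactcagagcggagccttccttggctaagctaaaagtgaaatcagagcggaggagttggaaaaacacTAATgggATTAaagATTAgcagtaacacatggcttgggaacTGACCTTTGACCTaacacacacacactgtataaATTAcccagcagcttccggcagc
Pkd1l2: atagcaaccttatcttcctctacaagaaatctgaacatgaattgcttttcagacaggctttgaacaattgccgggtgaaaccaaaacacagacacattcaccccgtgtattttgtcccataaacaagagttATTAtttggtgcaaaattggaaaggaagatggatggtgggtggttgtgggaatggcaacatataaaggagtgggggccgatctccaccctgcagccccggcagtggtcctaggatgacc
TAAT occurred 4 times before Bco1, its first bases 97, 90, 83 and 23 bases before the start, 1 time before Pkd1l2 and not in the window of Isx. At least 1 TAAT on either strand was held by 54.9% of all 32841 windows of this length, and at least 4 by 9.63%. The repeat occurred 1 time before Bco1, beginning 56 bases before the start, and in 11 of those windows in all (0.0335%). These matches describe letters in a window and are not evidence of binding. Scarb1 was not among the 82 of 107 named genes found in the table of promoters.

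Beyond these genes, those furthest above the range were of mixed function. None passed edgeR's test with all 6 libraries and no covariate. Scd1, the desaturase that makes monounsaturated fatty acids (ENSMUSG00000037071, chromosome 19, 44394455 to 44407879), measured 41.5 and 39.7 CPM in AF, 2.33 and 0.475 CPM in GF and 0.503 and 0.343 CPM in SPF. AF stood 14.2-fold above GF replicate 1, which was itself above the other 3 libraries; the log2 fold change was 5.37 (SE 0.68, edgeR adjusted p = 0.169, DESeq2 adjusted p = 2.33e-10). Without GF replicate 1 it was 6.49, with an edgeR adjusted p = 0.00192. Scd1 also passed without SPF replicate 4 (edgeR adjusted p = 0.0488), but not with the T cell score as a covariate (edgeR adjusted p = 0.831). Capn1, the large subunit of a calcium-dependent protease (ENSMUSG00000024942, chromosome 19, 5988545 to 6015897), measured 775 and 553 CPM in AF, 123 and 141 CPM in GF and 115 and 154 CPM in SPF, and the 4 others lay close together, within 0.42 on the log2 scale. Its log2 fold change was 2.32 (SE 0.25, edgeR adjusted p = 0.0966). Capn1 passed without SPF replicate 4 (edgeR adjusted p = 0.0281) and with the crypt score (edgeR adjusted p = 0.0115). It did not pass without GF replicate 1 (edgeR adjusted p = 0.145) or with the T cell score (edgeR adjusted p = 0.93). Gm10814, an antisense gene that overlaps Capn1 by 3278 bases, measured 11.5 and 7.90 CPM in AF and 0.0678 to 0.401 CPM in the others, and reads of the pair cannot be told apart without a stated strand setting.

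The remaining genes of this group stood at lower levels. Cyp2u1, a cytochrome P450 that acts on fatty acids, measured 19.9 and 21.9 CPM in AF, 6.3 and 6.3 CPM in GF and 3.84 and 3.43 CPM in SPF (log2 fold change 2.07, SE 0.30, edgeR adjusted p = 0.3). H2-Q10, a secreted MHC class I chain, measured 24.7 and 29.2 CPM in AF, 6.77 and 7.86 CPM in GF and 8.97 and 10.6 CPM in SPF, and no library of the others came within 2-fold of AF. Its log2 fold change was 1.66 (SE 0.22, edgeR adjusted p = 0.216), and RSEM's posterior SD was at most 2.31% of its count. H2-Q10 passed without SPF replicate 4 (edgeR adjusted p = 0.0408) and with the crypt score (edgeR adjusted p = 0.0471). It did not pass without GF replicate 1 (edgeR adjusted p = 0.227) or with the T cell score (edgeR adjusted p = 0.9996). Cuedc1 measured 62.1 and 59.7 CPM in AF against 6.88 to 26.5 CPM, and Slc4a11, a membrane transporter, 13.3 and 9.26 CPM against 0.686 to 3.15 CPM. Both passed with the crypt score as a covariate (edgeR adjusted p = 0.0493 and 0.038), but not without SPF replicate 4 (edgeR adjusted p = 0.204 and 0.186). Cryz, a quinone reductase, stood at 4.24 and 6.06 CPM against 0.0915 to 0.822 CPM, Bglap3 of the osteocalcin family at 8 and 6.95 CPM against 0.765 to 1.97 CPM, and Dnhd1, related to dynein heavy chains, at 7.22 and 6.65 CPM against 0.778 to 2.85 CPM. For Dnhd1 the posterior SD reached 14.5% of the count, so its level is uncertain.

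**Figure D2:**
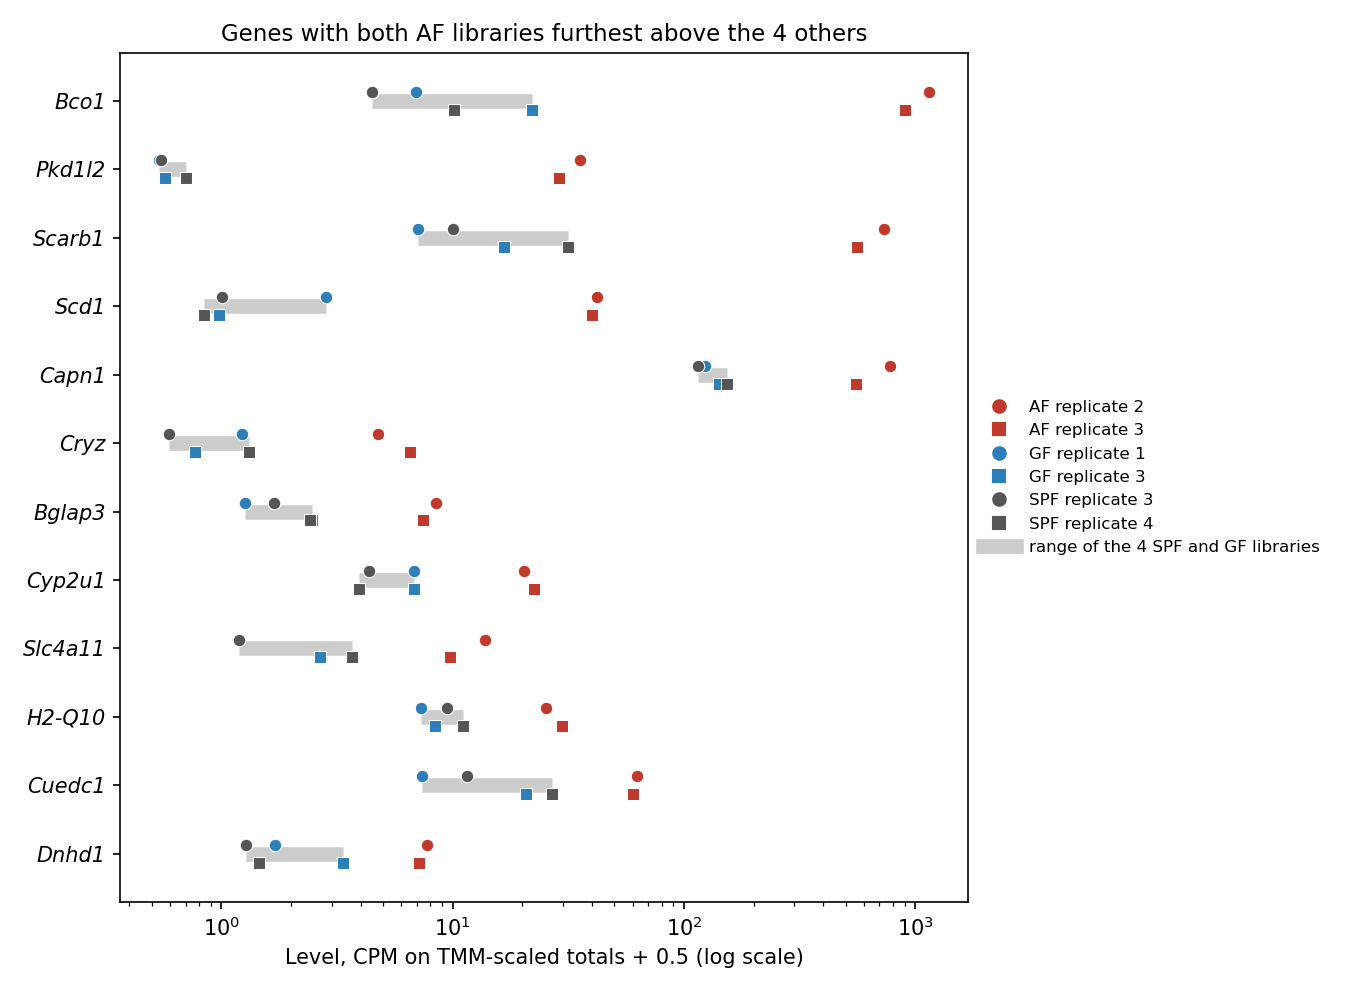
The 12 genes with the largest gap above the range and a mean of at least 5 CPM in AF or the others, ordered by that gap. The x axis is CPM + 0.5 on a log scale, points are single libraries, and the grey bar spans the 4 SPF and GF libraries; all AF points lie to the right of the bars, furthest for Bco1 and Pkd1l2.

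Among gene lists, that of tuft cells, chemosensory cells which signal to type 2 immunity, had the greatest share above the range. Of 14 tested members 12 lay above (85.7% against 8.07% of all genes) and 0 below, with a median log2 fold change of 1.33. Their summed level was 306 and 284 CPM in AF, 151 and 202 CPM in GF and 98.8 and 26.7 CPM in SPF. Both AF libraries were above every other, SPF replicate 4 was lowest, and GF replicate 3 came nearest. Trpm5, the cation channel of taste transduction, measured 88.4 and 95.4 CPM in AF, 42.1 and 62.3 CPM in GF and 31.2 and 8.5 CPM in SPF, and Avil, an actin-binding protein, 44.6 and 37.2 CPM in AF, 19.6 and 25.4 CPM in GF and 14.7 and 4.04 CPM in SPF. Siglecf, a sialic acid receptor, stood at 17.8 and 13 CPM in AF against 0.274 to 8.07 CPM, Alox5, which starts leukotriene synthesis, at 6.51 and 5.76 CPM against 0.137 to 3.39 CPM, and Pou2f3, the lineage factor, at 4.42 ± 0.628 CPM in AF (SD, n = 2) against 1.65 ± 1.42 CPM in the others (SD, n = 4). No member passed edgeR's test, whose adjusted p was 0.855 for Trpm5, 0.842 for Avil and 0.89 for Siglecf. Without SPF replicate 4, the library poor in several minor cell types, 13 of 14 lay above with a median of 0.97, and without any other single library 12 or 13 did. With library totals alone 8 of 14 lay above and on TPM 7 of 13. In bulk RNA, more cells of a type and more RNA per cell cannot be told apart.

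Of 22 tested enteroendocrine genes 2 lay above (9.09% against 8.07% of all genes), a share near the background. They were the hormones Cck (307 and 306 CPM in AF against 20.7 to 267 CPM) and Sct (424 and 484 CPM against 55.2 to 419.7 CPM), both within the range with library totals or TPM. The count depended on single libraries: without GF replicate 3 it was 16 of 23, with a median log2 fold change of 1.17 against 0.49 with all libraries, and without AF replicate 2 it was 7 of 23. Of 16 genes of sterol export and LXR targets 2 lay above (12.5% against 8.07%), Scd1 and the cholesterol exporter Abca1, which measured 18.7 and 12.5 CPM in AF, 6.63 and 5.22 CPM in GF and 10 and 8.02 CPM in SPF but lay within the range on TPM. The list's median log2 fold change was 0.53 against -0.01 for all genes, and with library totals 3 of its members lay above and 2 below. Without AF replicate 3 the count above was 6, without SPF replicate 4 it was 5, and without AF replicate 2 or GF replicate 3 it was 4.

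In the circadian clock list 5 of 17 lay above (29.4% against 8.07%) and 1 below, 2 below without GF replicate 1 or SPF replicate 3. With library totals 2 lay above and 3 below, and on TPM 0 and 3. Nr1d1, a repressor of the clock, measured 140.0 and 117 CPM in AF, 76.8 and 68.5 CPM in GF and 7.09 and 16.9 CPM in SPF, a difference between SPF and GF larger than that between GF and AF. Amino acid stress genes had 5 of 26 above (19.2% against 8.07%) and none below, among them Ddit3 (79.6 and 65 CPM against 34.4 to 57.4 CPM) and Atf3 (271 and 257 CPM against 185 to 215 CPM), with gaps of at most 1.21-fold. With library totals alone 1 of 26 lay above, and on TPM 1 of 24. Without AF replicate 2 there were 9 above, and without SPF replicate 4 there were 6 above and 5 below, with a median log2 fold change of -0.10 against 0.10 with all libraries. Asns, the asparagine synthetase that rises when amino acids are short, lay within the range at 9.97 and 12.6 CPM in AF, 11.3 and 11.3 CPM in GF and 17.1 and 2.6 CPM in SPF. Among single members of other lists, metallothionein Mt1 measured 96.8 and 90.7 CPM in AF against 21.6 to 62 CPM, and the mitochondrial carrier Ucp2 552 and 509 CPM against 301 to 358 CPM, both within the range with library totals or TPM.

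Enzymes that handle foreign compounds were 6 of the 12 genes furthest below the range: Cyp2b10, Cyp3a11, Cyp2c55, Ces1f, Gstm1 and Gstm3. Of 19 tested targets of CAR and PXR 12 lay below (63.2% against 10.1% of all genes) and none above, with a median log2 fold change of -0.76. Cyp2b10, the classic CAR target (ENSMUSG00000030483, chromosome 7, 25897620 to 25926624), measured 20.6 and 16.2 CPM in AF, 169 and 207 CPM in GF and 176 and 493 CPM in SPF. Cyp3a11, the classic PXR target (ENSMUSG00000056035, chromosome 5, 145854426 to 145879964), measured 58 and 43 CPM in AF, 176 and 217 CPM in GF and 331 and 1195 CPM in SPF. Cyp2c55 measured 5.26 and 4.22 CPM in AF, 29 and 33.8 CPM in GF and 28.3 and 131 CPM in SPF. In all 3 genes both GF libraries were well above AF, SPF replicate 3 was close to GF for Cyp2b10 and Cyp2c55, and SPF replicate 4 stood far above the rest. The log2 fold changes were -3.83 (SE 0.59), -3.25 (SE 0.93) and -3.55 (SE 0.83), with edgeR adjusted p = 0.339, 0.784 and 0.75. Without SPF replicate 4 that of Cyp2b10 was -3.33 with an edgeR adjusted p = 0.00717, and 12 of 19 members still lay below, with a median of -0.43. For Cyp2b10 the edgeR adjusted p was 0.00317 with the crypt score as a covariate. It was 0.227 without GF replicate 1 and 0.954 with the T cell score. The receptors themselves lay within the range. Nr1i2, which encodes PXR, stood at 98.3 ± 28.8 CPM in AF (SD, n = 2) against 95.1 ± 25.4 CPM in the others (SD, n = 4), and Nr1i3, which encodes CAR, at 116 ± 20.6 CPM in AF (SD, n = 2) against 122 ± 42.4 CPM in the others (SD, n = 4).

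Glutathione enzymes and carboxylesterases gave a like pattern, with AF lowest and SPF replicate 4 highest in the leading genes. In the list of glutathione and NRF2 targets 15 of 32 lay below (46.9% against 10.1% of all genes) and 1 above (3.12% against 8.07%), with a median of -0.46. The members furthest below were the Mu class transferases Gstm1 (8.87 and 9.02 CPM in AF, 54.3 and 43.2 CPM in GF and 47.1 and 238 CPM in SPF), Gstm3 (22.8 and 26.5 CPM in AF, 138 and 111 CPM in GF and 133 and 543 CPM in SPF) and Gstm2 (4.71 and 5.52 CPM in AF, 22.8 and 14.6 CPM in GF and 16.6 and 32.8 CPM in SPF), neighbours on chromosome 3 that resemble each other, with posterior SDs of at most 0.936% of the count. Their log2 fold changes were -3.42, -3.23 and -2.08 (SE 0.89, 0.81 and 0.39, edgeR adjusted p = 0.784, 0.75 and 0.649). Without SPF replicate 4 those of Gstm1 and Gstm3 were -2.43 and -2.37 (edgeR adjusted p = 0.00717 and 0.0131). Neither gene passed without GF replicate 1 (edgeR adjusted p = 0.502 and 0.466) or with the T cell score (edgeR adjusted p = 0.9996 each). Gstm5 lay above, at 19.8 ± 2.92 CPM in AF (SD, n = 2) against 11.4 ± 3.63 CPM in the others (SD, n = 4), and Nfe2l2, which encodes NRF2, lay within the range at 211 ± 7.03 CPM in AF (SD, n = 2) against 209.9 ± 64.2 CPM in the others (SD, n = 4). Leaving out each library in turn gave 15 to 18 below and 1 to 5 above, and without SPF replicate 4 the list had 16 below and 5 above, with a median of -0.22.

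Of 12 carboxylesterases, which hydrolyse esters of drugs and lipids, 5 lay below (41.7% against 10.1%) and 1 above (8.33% against 8.07%). Ces1f (ENSMUSG00000031725, chromosome 8, 93256236 to 93279747) measured 9.42 and 8.91 CPM in AF, 119 and 76.5 CPM in GF and 73.9 and 203 CPM in SPF, and its AF libraries stood 7.5-fold below the lowest other library. The log2 fold change was -3.69 (SE 0.53, edgeR adjusted p = 0.299, DESeq2 adjusted p = 2.39e-11). Ces1f passed without SPF replicate 4 (log2 fold change -3.30, edgeR adjusted p = 0.0142) and with the crypt score (edgeR adjusted p = 0.0471). It did not pass without GF replicate 1 (edgeR adjusted p = 0.273) or with the T cell score (edgeR adjusted p = 0.77). Targets of the aryl hydrocarbon receptor had 3 of 7 below (42.9% against 10.1%) and none above, and 2 below with library totals or TPM. Nqo1, a quinone reductase, measured 5.26 and 4.45 CPM in AF, 18.9 and 11.1 CPM in GF and 15.4 and 26.7 CPM in SPF. Cyp1a1 measured 2.82 and 6.35 CPM in AF, 34.6 and 29.7 CPM in GF and 6.91 and 32.4 CPM in SPF, where AF replicate 3 and SPF replicate 3 nearly met. The third, Ugt1a6a, is uncertain, with a posterior SD of up to 18.2% of the count, and lay within the range with library totals or TPM. Aqp8, a water channel of absorptive cells (ENSMUSG00000030762, chromosome 7, 123462291 to 123468004), had 0 counts in both AF libraries and measured 7.65 and 5.29 CPM in GF and 3.29 and 14.8 CPM in SPF. Against a floor of 3 counts over the AF libraries together (0.101 CPM) it was at least 76.5-fold lower in AF.

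**Figure D3:**
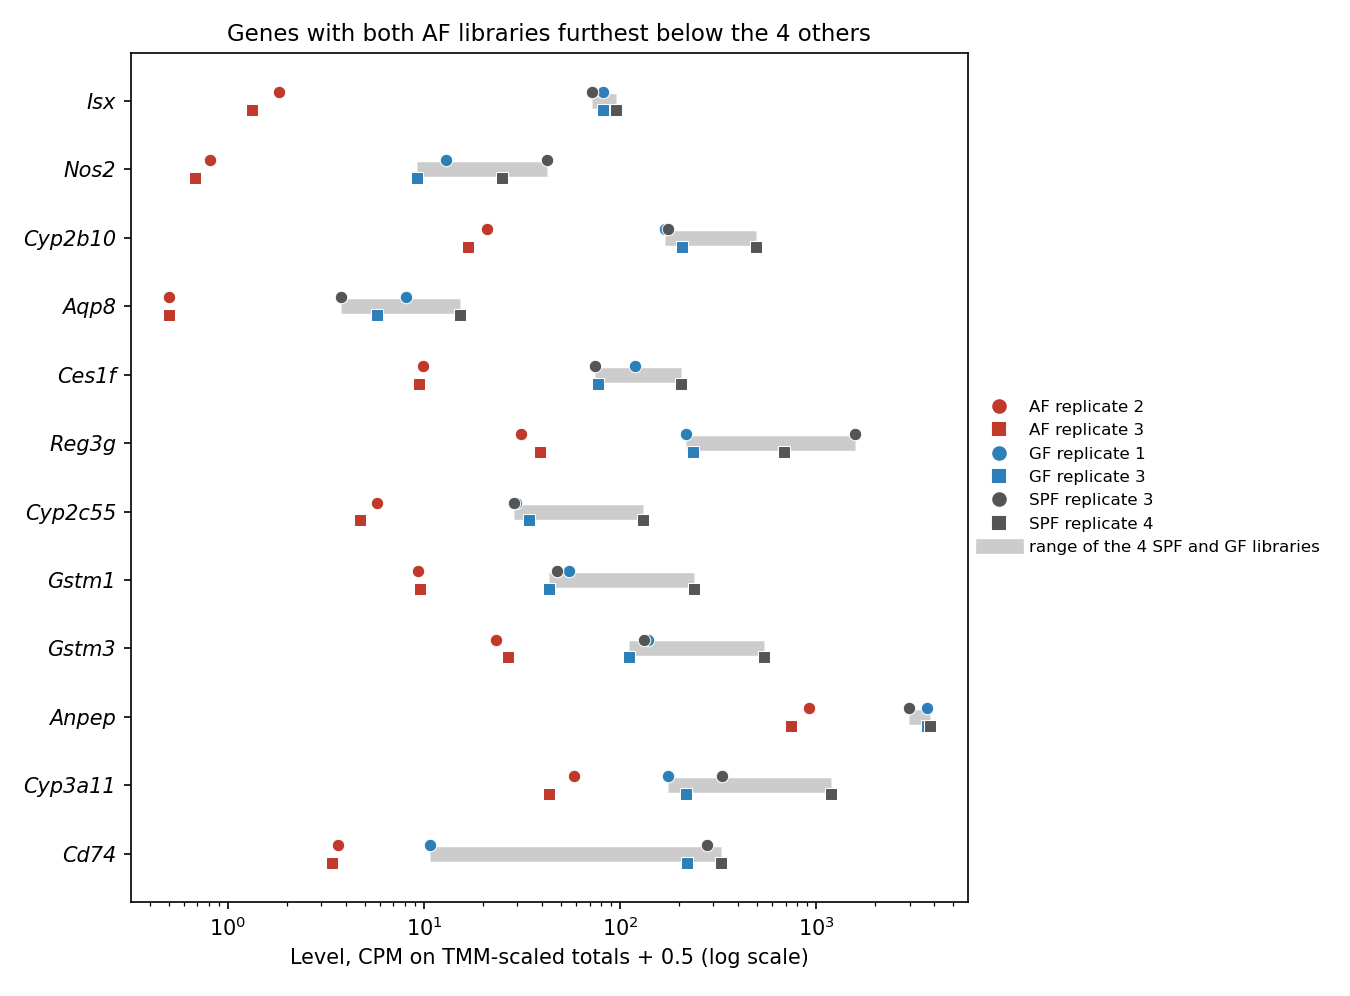
The 12 genes with the largest gap below the range and a mean of at least 5 CPM in AF or the others, ordered by that gap. The x axis is CPM + 0.5 on a log scale, points are single libraries, and the grey bar spans the 4 SPF and GF libraries; Isx has a narrow bar at 71.4 to 94.8 CPM, and Cd74 a wide one that GF replicate 1 extends down to 10.2 CPM.

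Epithelial host defence genes had 10 of 23 tested members below the range (43.5% against 10.1%) and none above, with a median log2 fold change of -0.60. Nos2, the inducible nitric oxide synthase (ENSMUSG00000020826, chromosome 11, 78920787 to 78960254), measured 0.314 and 0.178 CPM in AF, 12.5 and 8.74 CPM in GF and 42 and 24.5 CPM in SPF. Reg3g, a lectin that kills Gram-positive bacteria (ENSMUSG00000030017, chromosome 6, 78466269 to 78468872), measured 30.8 and 38.4 CPM in AF, 216 and 237 CPM in GF and 1575 and 685 CPM in SPF. Reg3b, its close relative, measured 128 and 169 CPM in AF, 342 and 418 CPM in GF and 2959 and 1075 CPM in SPF. Duox2, an epithelial oxidase that makes hydrogen peroxide, measured 8 and 4.99 CPM in AF, 18.7 and 42 CPM in GF and 115 and 73.9 CPM in SPF. In all 4 genes both GF libraries lay between AF and SPF, so AF was below GF as well as SPF. The cause was not tested, and batch and group cannot be told apart. The 7 counts of Nos2 in AF against 1749 in the others give a level 94 times as high in the others (exact binomial 95% interval 45.5 to 234). The log2 fold changes of the 4 genes were -6.48, -4.29, -3.02 and -3.27 (SE 0.96, 1.02, 1.01 and 0.77), and edgeR gave adjusted p = 0.3, 0.75, 0.832 and 0.75. Leaving out each library in turn left 10 to 14 members below.

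Peptidases of the brush border, which split peptides before uptake, leaned below the range. Of 15 tested peptidases 7 lay below (46.7% against 10.1% of all genes) and none above, the 15 had log2 fold changes below 0, and the median was -0.87. Anpep, aminopeptidase N (ENSMUSG00000039062, chromosome 7, 79821803 to 79861059), measured 924 and 747 CPM in AF, 3668 and 3674 CPM in GF and 2988 and 3804 CPM in SPF. The 4 others spanned 0.35 on the log2 scale, and AF stood 3.23-fold below the lowest. Its log2 fold change was -2.08 (SE 0.37), with an edgeR adjusted p = 0.649 and a DESeq2 adjusted p = 2.74e-18. Enpep, glutamyl aminopeptidase, measured 260.1 and 229.7 CPM in AF against 497 to 639 CPM, the meprin subunit Mep1b 365 and 273 CPM against 633 to 1010.5 CPM, and Dpp4, dipeptidyl peptidase 4, 191 and 154 CPM against 298 to 512 CPM. None of these groups overlapped, and none passed edgeR's test with all 6 libraries and no covariate. For Anpep the edgeR adjusted p was 0.0484 with the crypt score as a covariate and 0.159 without SPF replicate 4. With library totals alone 13 of 15 lay below, on TPM 14, without AF replicate 2 likewise 13, and without SPF replicate 3 11.

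Of 22 peptide and amino acid transporters 5 lay below (22.7% against 10.1%), 11 with library totals and 12 of 19 on TPM. Without AF replicate 2 the count was 10 and without SPF replicate 3 it was 8. Slc43a2, a carrier of large neutral amino acids, measured 215 and 184 CPM in AF, 372 and 432 CPM in GF and 398 and 691 CPM in SPF, and Slc16a10, of aromatic amino acids, 84.6 and 75.9 CPM in AF against 113 to 219 CPM. Slc7a8 and Slc7a7, basolateral exchangers, measured 99.3 and 103 and 102 and 71.3 CPM in AF against 138 to 205 and 132 to 172 CPM. Slc15a1, the peptide transporter PEPT1, lay within the range, at 161 and 106 CPM in AF, 225 and 283 CPM in GF and 155 and 269 CPM in SPF. With library totals or on TPM Slc15a1 lay below the range, and its log2 fold change was -0.80 (SE 0.33, edgeR adjusted p = 0.842). Among fat absorption genes 6 of 24 lay below (25% against 10.1%) and none above, 15 with library totals and 18 on TPM. Without GF replicate 1 the count was 13, without AF replicate 2 it was 12, and without SPF replicate 4 there were 7 below and 3 above. Mttp, which loads lipid onto chylomicrons, measured 715 and 602 CPM in AF, 1033 and 938 CPM in GF and 1321 and 2402 CPM in SPF, and Acsl5, an acyl-CoA synthetase, 582 and 473 CPM in AF, 799 and 857 CPM in GF and 945 and 1881 CPM in SPF. In both, SPF replicate 4 stood well above the other 3 pooled libraries.

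Genes of MHC class II presentation lay below the range in 8 of 11 tested members (72.7% against 10.1%; median log2 fold change -3.80), but 1 GF library came close to AF. Cd74, the invariant chain (ENSMUSG00000024610, chromosome 18, 60803848 to 60812652), measured 3.14 and 2.91 CPM in AF, 10.2 and 220.0 CPM in GF and 279 and 329 CPM in SPF. H2-Ab1, a class II chain, measured 6.59 and 4.87 CPM in AF, 13.1 and 124 CPM in GF and 122 and 187 CPM in SPF. Ciita, the class II transactivator, measured 0.471 and 0.653 CPM in AF, 1.97 and 7.66 CPM in GF and 8.65 and 13.7 CPM in SPF. In each, GF replicate 1 lay nearer to AF than to the other 3 libraries, and it was the nearest library for every one of these 3 genes. H2-Aa touched the limit of the rule, with 2.12 and 1.07 CPM in AF and 2.26 CPM in GF replicate 1, against 47.4 to 72 CPM in the other 3.

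edgeR gave adjusted p = 0.75 for Cd74, H2-Ab1 and Ciita alike, with log2 fold changes of -6.11, -4.28 and -3.80 (SE 1.43, 1.05 and 0.85). Without GF replicate 1 they were -6.51, -4.66 and -4.12, with edgeR adjusted p = 0.00418, 0.0138 and 0.0916. None of these genes passed without SPF replicate 4 (edgeR adjusted p = 0.335, 0.345 and 0.329). Members of the same list that work in the lysosome rather than as class II chains lay closer to the others: Ifi30, a thiol reductase, stood at 75 ± 3.38 CPM in AF (SD, n = 2) against 73.8 ± 4.21 CPM in the others (SD, n = 4), within the range, and the protease Ctss at 37.6 ± 3.35 CPM in AF (SD, n = 2) against 64.2 ± 22.2 CPM in the others (SD, n = 4), below it.

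T cell genes were low in the same libraries as class II genes. Of 17 tested genes of intraepithelial lymphocytes and T cells 12 lay below the range (70.6% against 10.1% of all genes). Their median log2 fold change was -2.89, and their summed level 27.1 and 18.1 CPM in AF, 45.3 and 424 CPM in GF and 262 and 100.1 CPM in SPF. Gzma, a granzyme of cytotoxic cells, measured 4.71 and 3.5 CPM in AF, 12.9 and 137 CPM in GF and 78.2 and 29.5 CPM in SPF, and Itgae, the integrin that holds lymphocytes in the epithelium, 1.18 and 1.13 CPM in AF, 2.62 and 21 CPM in GF and 14.7 and 5.21 CPM in SPF. The 2 lists shared GF replicate 1 as the pooled library nearest to AF, but not the order of the rest: GF replicate 3 held the most T cell RNA and SPF replicate 4 the most Cd74. Markers of B cells and macrophages were scarce, with Cd79a at 0 to 0.0915 CPM, Csf1r at 0.178 to 1.90 CPM and Adgre1 at 0 to 0.475 CPM. Itgax, of the myeloid list, lay below the range at few counts. It measured 0.235 and 0.534 CPM in AF, 0.692 and 3.05 CPM in GF and 2.33 and 1.37 CPM in SPF. The sums of the B cell list (13.4 and 19.8 CPM in AF, 18.7 to 50 CPM in the others) overlapped, and those of the myeloid list (7.30 and 7.24 CPM against 10.8 to 26 CPM) did not. With the mean log2 level of the T cell list as a covariate, the log2 fold changes of Cd74, H2-Ab1 and Ciita were -4.41, -3.01 and -3.12 (edgeR adjusted p = 0.9996 each), and that of Isx -6.31 (adjusted p = 0.0482). Pkd1l2 kept its size in that fit, at 8.63, and missed the threshold (adjusted p = 0.692). The T cell score was itself lowest in AF, at 0.78 and 0.36 against 1.05 to 3.66 in the others. The fit therefore cannot separate the score from the group, and the part of T cell RNA in the class II values was not tested.

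**Figure D4:**
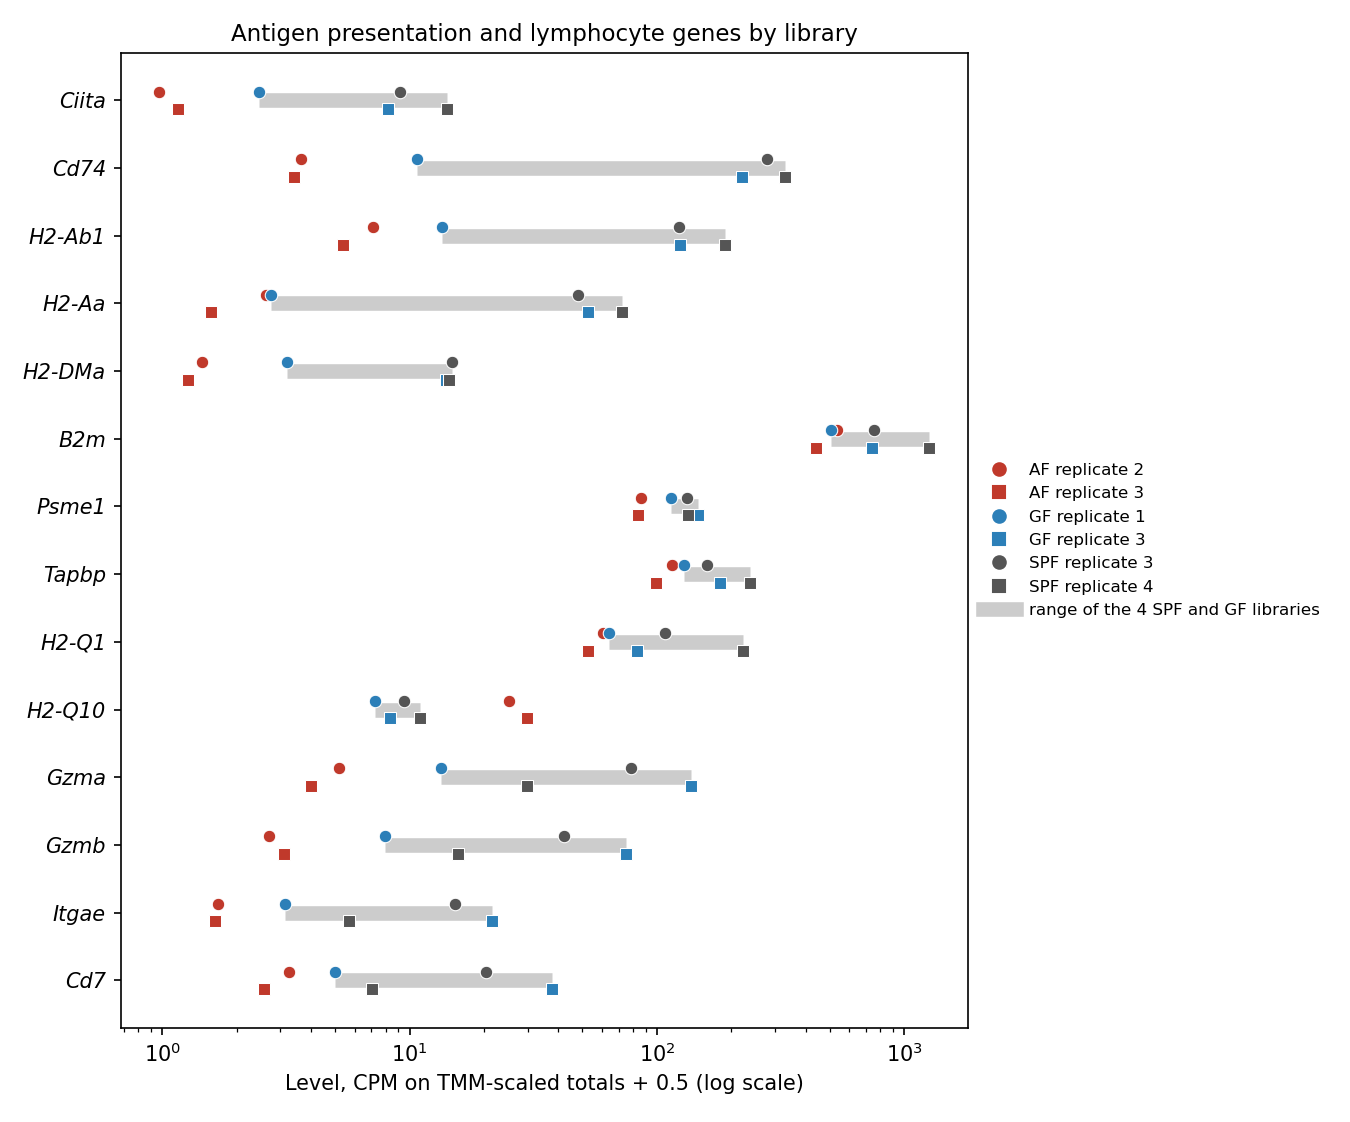
Levels by library of MHC class II genes (Ciita to H2-DMa), class I genes (B2m to H2-Q10) and lymphocyte genes (Gzma to Cd7), as CPM + 0.5 on a log x axis, with a grey bar over the 4 SPF and GF libraries. Class II and lymphocyte bars are wide and reach down to GF replicate 1, next to AF, while H2-Q10 lies above its bar.

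Of 29 tested genes of class I presentation 4 lay below the range (13.8% against 10.1%) and 1, H2-Q10, above, with 27 log2 fold changes below 0 and a median of -0.62. B2m, the light chain, was within the range at 536 and 439 CPM in AF, 507 and 737 CPM in GF and 753 and 1261 CPM in SPF. With library totals or on TPM B2m lay below the range. Psme1, a proteasome activator subunit, lay below at 85.6 and 83.6 CPM in AF, 114 and 146 CPM in GF and 132 and 134 CPM in SPF, and Tapbp, which helps load class I, at 115 and 99 CPM in AF against 128 to 237 CPM. The count depended on single libraries and on scaling: 21 of 29 lay below without GF replicate 1, 13 without AF replicate 2, 6 without AF replicate 3 or SPF replicate 4, 19 with library totals and 20 on TPM. Interferon response genes gave 2 of 49 below (4.08% against 10.1%) and 1 above, but 12 below with library totals and 15 of 46 on TPM. Without GF replicate 1 there were 21 below, without AF replicate 2 or 3 there were 6 or 7 of 51, and without SPF replicate 4 there were 3 below and 6 above. Irf8 measured 43.4 and 31.5 CPM in AF, 47.4 and 70.2 CPM in GF and 82.8 and 105 CPM in SPF, and Ddx58 met the limit of the rule, at 37 and 30.2 CPM in AF against 37.3 to 87.7 CPM. Mx1, an antiviral GTPase, lay above at 26.9 and 22.3 CPM in AF, 5.1 and 12.3 CPM in GF and 14.5 and 19.7 CPM in SPF, except on TPM.

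With all 6 libraries, none of 14 Paneth cell, 14 goblet cell, 14 brush border enterocyte, 24 proliferation or 16 sugar digestion genes lay outside. Their AF levels fell inside a range that SPF replicate 4 widened, as with Lyz1 of Paneth cells (371 and 788 CPM in AF, 2085 and 308 CPM in GF and 469.6 and 9.53 CPM in SPF) and Muc2 of goblet cells (1451 and 1224 CPM in AF, 1003 and 1915 CPM in GF and 2323 and 200.2 CPM in SPF). Although none lay outside, all 14 Paneth cell genes had log2 fold changes below 0, with a median of -0.31. That direction depended on single libraries and on scaling. The Paneth median was 0.92 without GF replicate 1 and 0.13 without AF replicate 2, and -1.06 to -0.47 without any other single library. It lay 0.92 above the median of all genes on TPM and 0.50 below it with library totals. Of 14 crypt stem cell genes 1 lay below: Axin2, a Wnt target, whose higher AF library (24 CPM) was just under the lowest other. Library totals placed 6 of the 14 brush border enterocyte genes below and TPM 8, and each placed 4 of the 16 sugar digestion genes below. Without SPF replicate 4, 8 of 16 sugar digestion and 3 of 14 brush border enterocyte genes lay above, 6 of 14 goblet cell genes and 1 of 14 Paneth cell genes below, and none of 24 proliferation genes outside. Without AF replicate 2, 4 sugar digestion and 3 brush border enterocyte genes lay below and 2 proliferation genes above, and without any other single library at most 2 genes of each of these 5 lists lay outside.

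**Figure D5:**
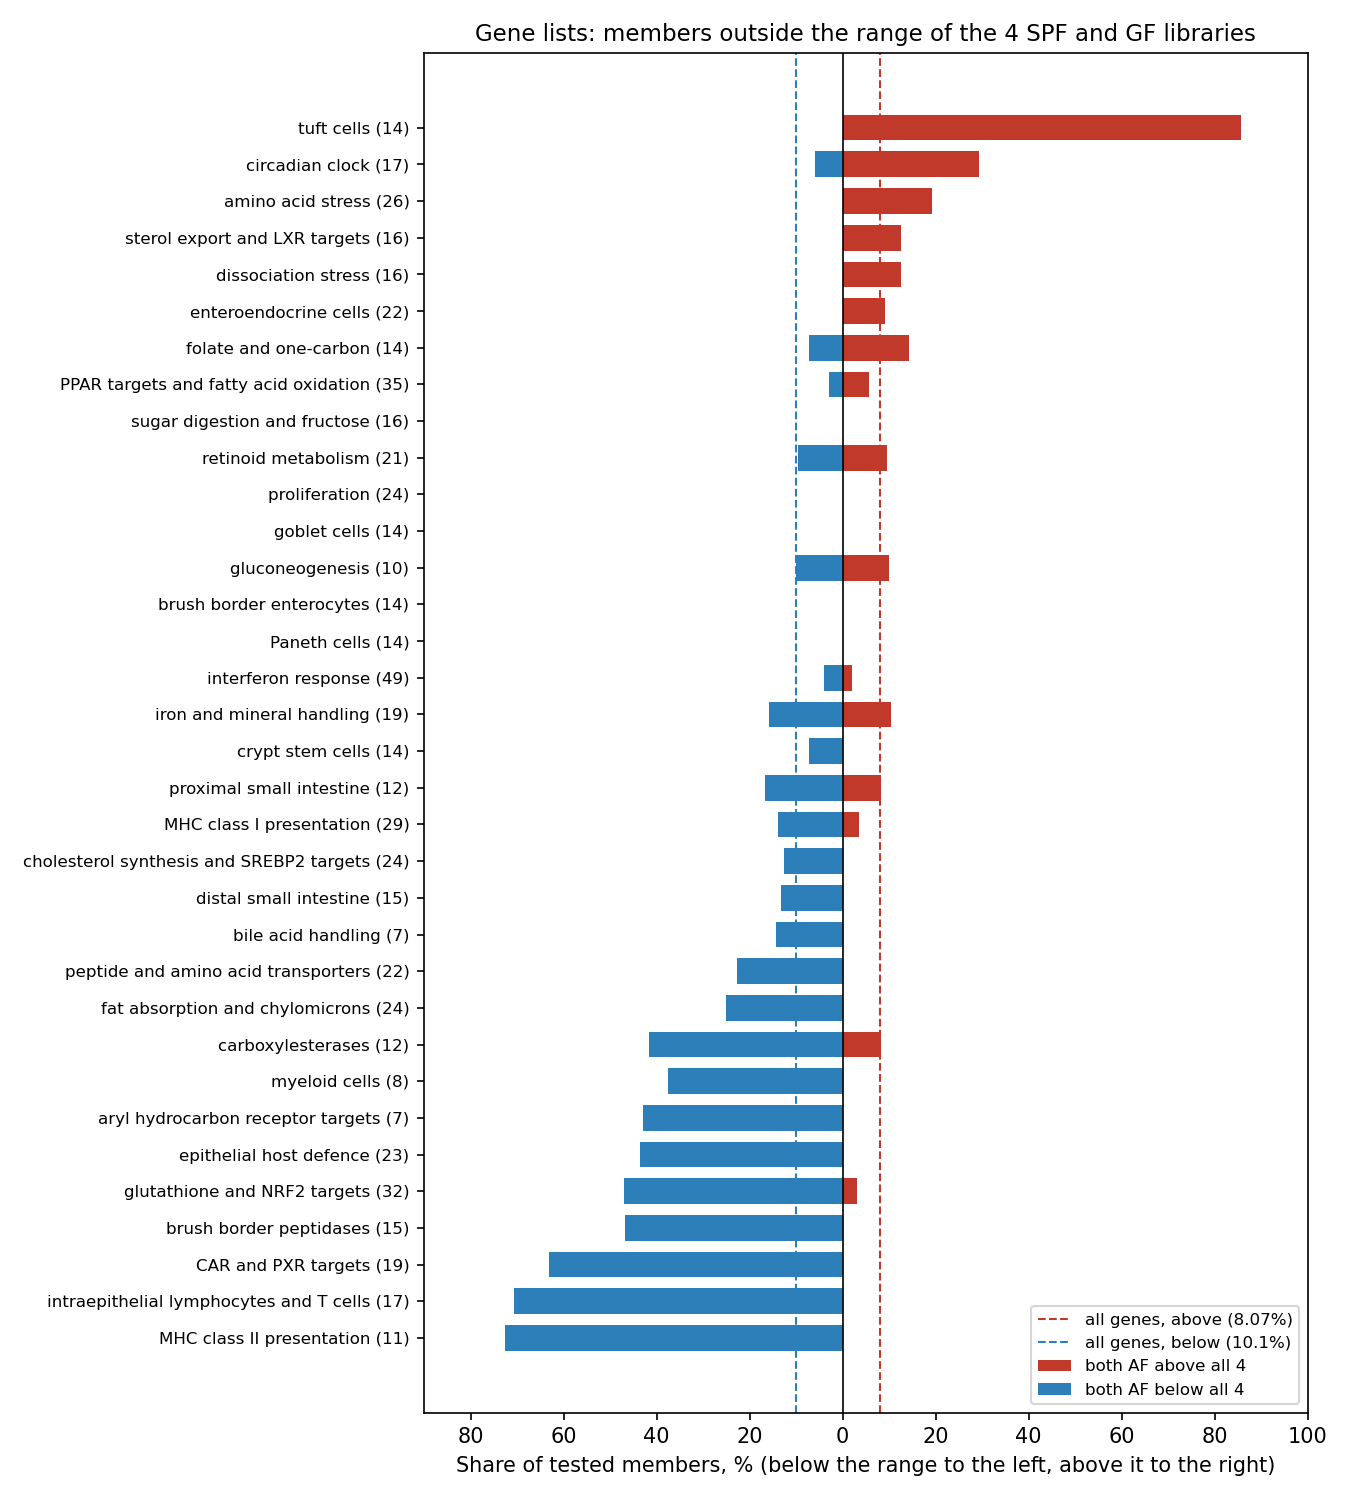
Bars give, for each list with at least 7 tested members (number in brackets), the share of members with both AF libraries above (right) or below (left) all 4 others, in percent. Dashed lines mark the shares of all genes, 8.07% above and 10.1% below; the tuft cell list reaches furthest to the right, and MHC class II, T cell and CAR and PXR lists furthest to the left.

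For most genes outside the range the nearest pooled library was a GF library. Among genes above the range GF replicate 3 was the nearest for 463 of 1067 (43.4%), and among genes below it GF replicate 1 for 508 and GF replicate 3 for 482 of 1333 (38.1% and 36.2%). The gap to AF exceeded the whole log2 range of the 4 others for 97 genes above and 112 below. Among genes with a gap of 2-fold this was so for 20 of 29 above, Bco1, Scarb1, Scd1, Pkd1l2 and Capn1 among them. Below it was so for 11 of 30, which include Isx, Nos2, Cyp2b10, Aqp8, Ces1f, Cyp2c55 and Anpep, but not Reg3g, Gstm1, Gstm3, Cyp3a11 or Cd74.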

How the data were processed

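Per the labels' protocols, cells of the small intestine were sorted, RNA was purified on RNeasy columns, and TruSeq libraries were sequenced on a NextSeq instrument. The submitters' processing notes list RSEM, STAR 2.5.2b and edgeR 3.16.5, with GRCm38/mm10 as genome; RSEM's version, its annotation and the strandedness were not given in the sources used here. Per the file headers, the authors deposited RSEM expected counts per gene, with no scaling between libraries, TPM values, and RSEM's posterior standard deviation of the count, a score of how surely reads were assigned. Genes were named and placed with GENCODE M21 (51719 of 51912 IDs matched). Expected counts were rounded (23.5% of values above 0 were not whole). edgeR's filterByExpr left 13222 genes after 403 on X and Y were removed. Replicates differed beyond sampling noise (chi-square per gene 45.5 in AF, 247 in GF and 199 in SPF), so each was kept as its own sample.

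Tests used edgeR's quasi-likelihood F statistic with 2 groups, AF (2) and SPF with GF (4), with 4 residual and 3.08 prior degrees of freedom. The SE of a log2 fold change is its size over the square root of its F value. The same code was run on counts simulated without differences between SPF and GF, which does not show how it behaves on these data. Named genes were, in each direction, the 12 with the widest gap and at least 5 CPM, called genes, up to 4 members outside the range of each of 38 lists with at least 1 CPM, and 11 chosen genes; Bco2, Nr1i2, Nr1i3, Gstm5, Nfe2l2, Ifi30, Ctss, Pou2f3 and cell type markers were added after their values were seen. Some named genes are not reported here. Members and lists were chosen with earlier results of these data known. Scripts ran in R 4.3.3 with DESeq2 1.42.0, limma 3.58.1, edgeR 4.0.16 and the package data.table (1.17.8). Alternatives were a fit with 3 groups, DESeq2, the likelihood ratio test, limma on log2(TPM + 1), other scalings and filters, mitochondrial or sex-linked genes left out or kept, marker scores as covariates, and each library left out.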

Additional observations from a re-analysis of the deposited data

How the results depend on the processing

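The counts of genes called higher and lower, 1 each, were 28 and 77 with DESeq2 (1028 genes without an adjusted p), 28 and 54 with edgeR's likelihood ratio test, 3 and 2 with library totals, 6 and 5 without a filter on low counts, 7 and 4 with limma on TPM, and 15 and 10 with a crypt score as a covariate. With a lymphocyte score as a covariate 0 were higher and 1 lower, and at an adjusted p below 0.1 there were 4 higher. Leaving out 1 library gave 0 to 7 higher and 0 to 7 lower, none in either direction without AF replicate 2 (edgeR adjusted p = 0.0566 for both Isx and Pkd1l2) and 7 in each without SPF replicate 4. The range rule gave 416 above with library totals, and 207 above and 2115 below on TPM. With a gap of 2-fold it gave 18 above and 70 below with library totals, and 17 and 73 on TPM. Leaving out 1 library gave 1173 to 2420 above and 1520 to 2659 below, and with a gap of 2-fold 36 to 77 above (77 without GF replicate 3) and 37 to 113 below (113 without GF replicate 1); fewer libraries to clear make the rule easier to meet. The fit with 3 groups, median-of-ratios scaling, a filter of 1 CPM, mitochondrial genes left out and sex-linked genes kept gave counts within 1.5 times the main ones.

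Of 1815 log2 fold changes of the 107 named genes under alternatives, 6 changed sign: Asns (-0.26 with library totals, and -0.22 to 0.43 with 1 library left out, negative without AF replicate 3, at -0.11, and without SPF replicate 4), Atf3 (-0.026 on TPM), Ucp2 (-0.019 on TPM) and Fcer1g (0.32 with the lymphocyte score). The cause was not tested. A further 86 passed the threshold where the main value did not, and 3 lost it (Isx and Pkd1l2 as above, Pkd1l2 with the lymphocyte score). No paired analysis was possible because the groups compared share fewer than 2 replicate numbers in the labels, only the number 3. Depth limits genes at a few counts, as Pkd1l2 outside AF and Isx and Nos2 within it.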
